A study of Mus musculus with 8 samples.

Results

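Integrins are adhesion receptors made of 1 alpha and 1 beta chain, and 10 of the genes that encode them were followed here in the accessible chromatin of mouse microglia. The members were Itgam, Itgb2, Itgax, Itgal, Itgb5, Itgav, Itga6, Itga4, Itgb1 and Itga9, chosen by name, and every listed peak whose nearest annotated gene was one of them was taken. This gave 109 of 67822 peaks and 10 of 16095 genes with a peak. The knockout group was 4 libraries of Nlrp3-/- mice, also named Cias1 knockout and credited to Millennium Pharmaceuticals, and the other was 4 libraries of wild-type animals with the C57BL/6N genetic background. The sources used here do not give the knockout strain's background or the animals' age and sex, and the loss of Nlrp3 is not described as limited to a cell type. All 8 libraries were made by ATAC-seq, in which a transposase places sequencing adapters into open chromatin, from forebrain cells selected on magnetic columns for CD11b. Whether each replicate was a different animal is not stated, and p-values cover the spread among libraries alone, which may be technical.

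CD11b, the protein used for the isolation, is the product of Itgam. It pairs with CD18, the product of Itgb2, to form complement receptor 3, with which microglia bind iC3b-coated material such as tagged synapses. Beta 2 integrins are found on leukocytes, whereas beta 1 and alpha V integrins are widely expressed and bind matrix proteins, VCAM-1 or latent TGF-beta. NLRP3 is the sensor of an inflammasome that activates caspase-1, and accessibility at the integrin genes was compared between microglia without and with it. Gene expression and surface protein were not measured in these samples.

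Both Nlrp3 promoter peaks checked the genotype labels. The 4 knockout libraries together held 1 and 2 tags there, whereas each wild-type library held 58 to 80 and 54 to 69. Library totals ran from 11325865 to 15521580 tags. The share of tags in peaks was 6.68%, 4.96%, 20.9% and 26.2% in knockout replicates 1 to 4, and 9.79% to 17.5% in the wild-type libraries. Depth at the median tested peak ran from 8 tags (knockout replicate 2) to 36 (knockout replicate 4), and the counts of called peaks and genes were also taken without knockout replicates 1 and 2. Tags on chromosome Y numbered 88 in knockout replicate 3 and 1 to 9 in the other knockout libraries, against 201 and 255 in wild-type replicates 3 and 4 and 9 and 13 in the other wild-type libraries. As a covariate these tags split the libraries into those above 50 and those below, and with it 0 member peaks or gene sums passed the test. All 12 microglial marker genes had peaks, among them P2ry12, Tmem119 and Sall1, and their summed level in CPM, tags scaled to a common library size, was 2457 to 2782 in knockout and 2350 to 2576 in wild-type libraries. Among 8 lymphocyte markers, Cd3e, Cd3g, Cd79a, Ncr1 and Gzma had no peak. The 3 with peaks (Cd2, Cd79b, Klrb1c) summed to 210 to 269 CPM in knockout and 204 to 233 CPM in wild-type libraries. Among 8 granulocyte markers, S100a8, Ly6g, Camp, Retnlg and Mpo had no peak. The 3 with peaks summed to 32.03 to 39.97 CPM in knockout and 37.2 to 44.7 CPM in wild-type libraries. The summed level of the 5 of 6 monocyte markers with peaks was 226.7 to 435 CPM in knockout and 276 to 382 CPM in wild-type libraries, with no peak at Chil3, and its part in the results was not tested.

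Accessibility at the integrin genes did not pass the test between genotypes at any peak or gene. Of the 109 peaks, 97 held enough tags to be tested, and 0 of the 97 passed an adjusted p under 0.05 in edgeR's quasi-likelihood test, where 0.17% of all 58135 tested peaks did. DESeq2, run over all 109 member peaks, also called 0. It gave 2 of them an unadjusted p under 0.05, and 1487 of all 67822 peaks. In bulk libraries, fewer cells of a type and less accessibility per cell cannot be told apart. Without knockout replicates 1 and 2, edgeR called 0 of 107 tested member peaks and 246 of all peaks. At an unadjusted p under 0.05 edgeR gave 3 member peaks, or 3.09%, all of them in Itga9, against 4.83% of all tested peaks. Values were 51 higher and 46 lower in knockout, between -0.71 and 0.71 in log2 fold change, with a median of 0.0052 against 0.0037 over all tested peaks. The peaks were merged from a list of each genotype. The peak at -0.71 was on the wild-type list alone and the peak at 0.71 on the knockout list alone. Such a peak entered through the genotype where it was found, so its sign is partly set by that choice. The median absolute log2 fold change was 0.196 for the member peaks and 0.176 for all tested peaks. The 12 peaks that were not tested held 0 to 26 tags per library and belonged to Itga9 (5), Itga4 (2), Itgax (2), Itga6 (1), Itgal (1) and Itgav (1).

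**Figure D1:**
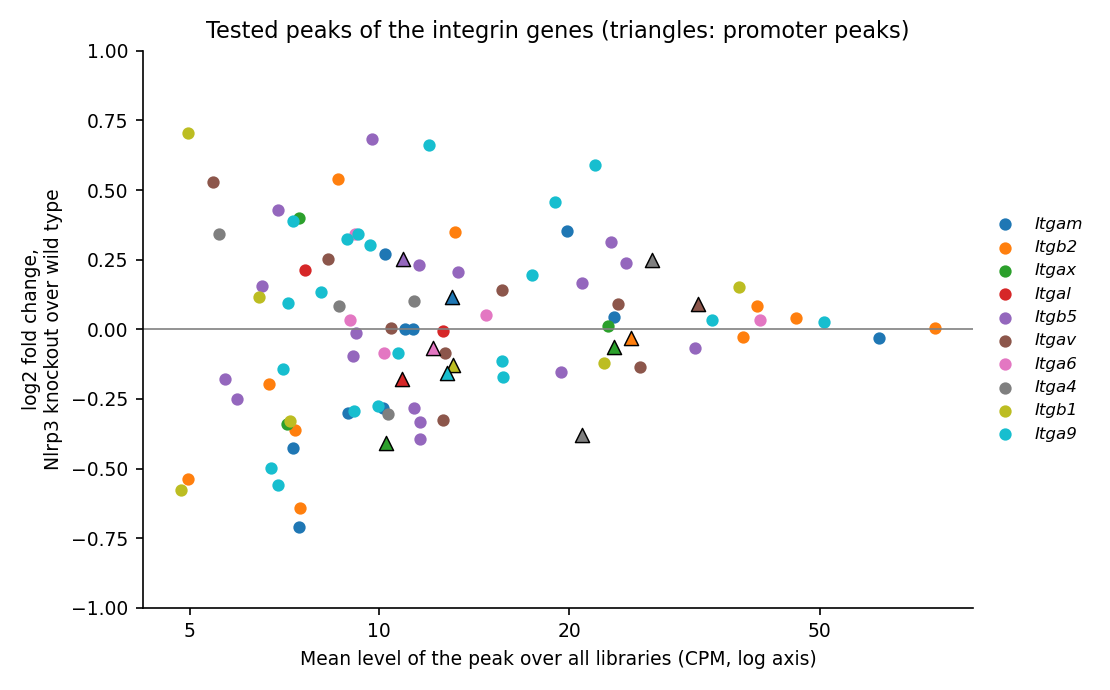
Log2 fold change of knockout over wild type (vertical axis) against the mean level over 8 libraries in CPM (log axis) for the 97 tested peaks, coloured by gene, with promoter peaks as outlined triangles. The points lie on both sides of 0 and between -0.71 and 0.71, and the wider scatter is among peaks of low level.

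The sums over all peaks of a gene gave a narrower bound. None of the 10 gene sums passed the adjusted p in edgeR (0.213% of 15476 tested genes did) or in DESeq2, and 0 of the 10 had an unadjusted p under 0.05 in either, where 5.96% of all tested genes did in edgeR. Both genotypes' values overlapped for all 10 genes, whereas the groups did not overlap for 3.46% of all tested genes. Log2 fold changes ran from -0.05 (Itgax) to 0.11 (Itga6), and the 95% intervals of the 10 genes all lay between -0.34 and 0.43. In fold terms the widest upper bound was 1.35, for Itgal. Tags at the 109 peaks made up 0.152% ± 0.0079 of all tags in peaks in knockout and 0.152% ± 0.0052 in wild-type libraries (SD, n = 4 each).

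**Figure D2:**
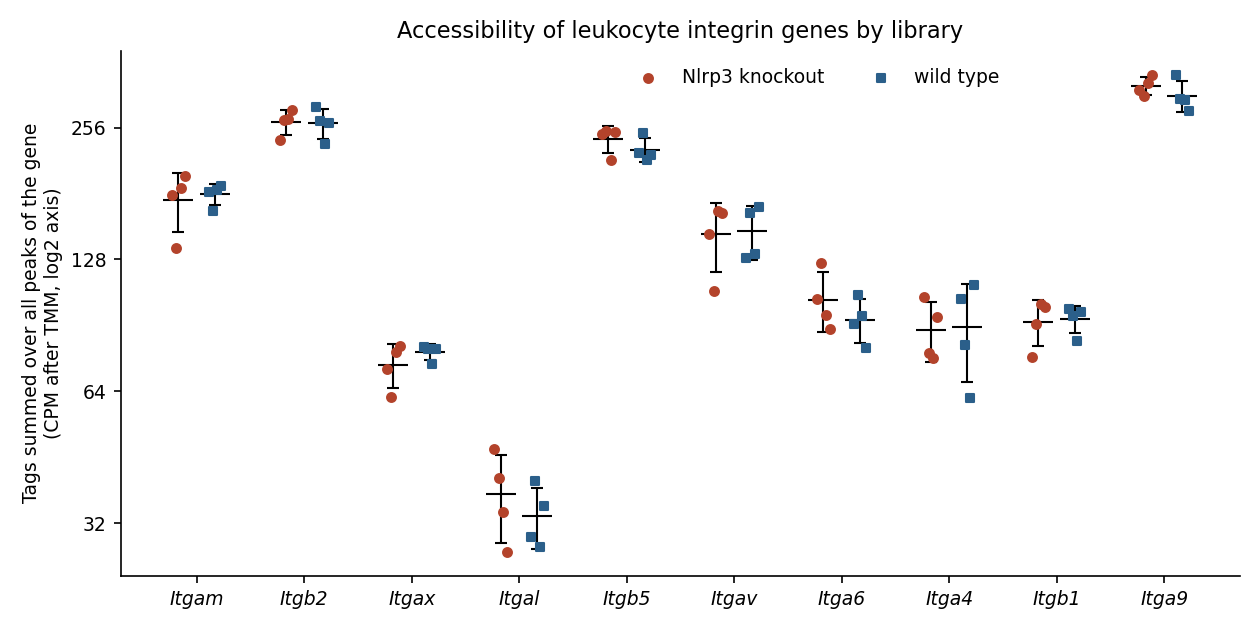
Tags summed over all peaks of each gene, in CPM after TMM scaling (log2 axis), with 1 point per library, knockout left of wild type, and bars for the mean and SD of 4 libraries. The 2 groups overlap at every gene, and knockout replicate 2 lies lowest at Itgam, Itgax and Itgav.

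The beta 2 family holds the leukocyte integrins proper. Itgam had 179, 136, 186 and 198 CPM over its 11 peaks in knockout replicates 1 to 4, against 183, 166, 184 and 189 CPM in wild-type replicates 1 to 4. Knockout replicate 2 lay below all others and knockout replicate 4 above them, so the wild-type values fell inside the knockout range. The means were 175 ± 27.2 CPM in knockout and 180 ± 10.2 CPM in wild type, a log2 fold change of -0.0089 with an SE of 0.093 and a 95% interval of -0.20 to 0.18. Since the cells were selected for the product of this gene, its accessibility describes cells that already carried the protein.

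The strongest Itgam peak was not at its promoter. It lay between genes at chr7:128048806-128049180 (mm10), 13.6 kb before the annotated start, and held 33.6% of the tags of the gene's peaks. It had 53.1, 42.8, 69.4 and 74.1 CPM in knockout and 63.1, 62.5, 65.5 and 65.2 CPM in wild-type libraries. The knockout values spread on both sides of the close wild-type values, and the log2 fold change was -0.03 (SE 0.15). Per kb of peak this element was 1.98 to 3.24 times the promoter peak in the knockout libraries and 2.61 to 4.11 times in the wild-type libraries. The promoter peak, chr7:128062530-128062760, had 13.3, 13.3, 13.2 and 14.2 CPM in knockout and 14.9, 11.2, 14.2 and 9.78 CPM in wild-type libraries. The knockout values were close together and lay inside the wild-type range. Of the other 9 peaks, 5 lay upstream and 4 in introns. In intron 2, the peak at chr7:128065649-128065925 averaged 21.7 ± 5.88 CPM in knockout and 17.9 ± 2.13 CPM in wild type, and the one at chr7:128067909-128068190 averaged 5.07 ± 3.55 and 9.84 ± 2.98 CPM in the same order of genotypes. These neighbouring peaks had log2 fold changes of opposite sign, 0.35 and -0.71, and neither passed the test. The second was on the wild-type list alone, so its lower knockout value is partly set by how it entered.

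Itgb2 encodes CD18, the beta chain shared by CD11a, CD11b and CD11c. Its 11 peaks summed to 240, 266, 268 and 281 CPM in knockout and 285, 266, 235 and 262 CPM in wild-type libraries. The ranges nearly coincided, and the log2 fold change was 0.02 (SE 0.08, 95% interval -0.14 to 0.18). A peak in intron 8 of 15, chr10:77551033-77551304, was the strongest of all 109 peaks. It had 66.4, 76.8, 78.6 and 82.5 CPM in knockout and 84.5, 69.6, 73.4 and 78.3 CPM in wild-type libraries, with a log2 fold change of 0.0052 (SE 0.13). Knockout replicate 1 was the lowest and wild-type replicate 1 the highest. The promoter peak, chr10:77530161-77530421, averaged 24.8 ± 8.22 CPM in knockout and 25.5 ± 4.11 CPM in wild type. Knockout replicate 1 was lowest there, at 13.3 CPM. Weaker peaks in introns 3 and 6, chr10:77543242-77543557 and chr10:77548686-77548974, had log2 fold changes of -0.64 and 0.54, and neither passed the test. The first of them was on the wild-type list alone. The intron 1 and intron 3 peaks 6.60, 10.5 and 14.8 kb after the start were stronger than the promoter, at 45.4, 40.9 and 37.4 CPM in knockout and 46.4, 38.5 and 38.1 CPM in wild type.

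**Figure D3:**
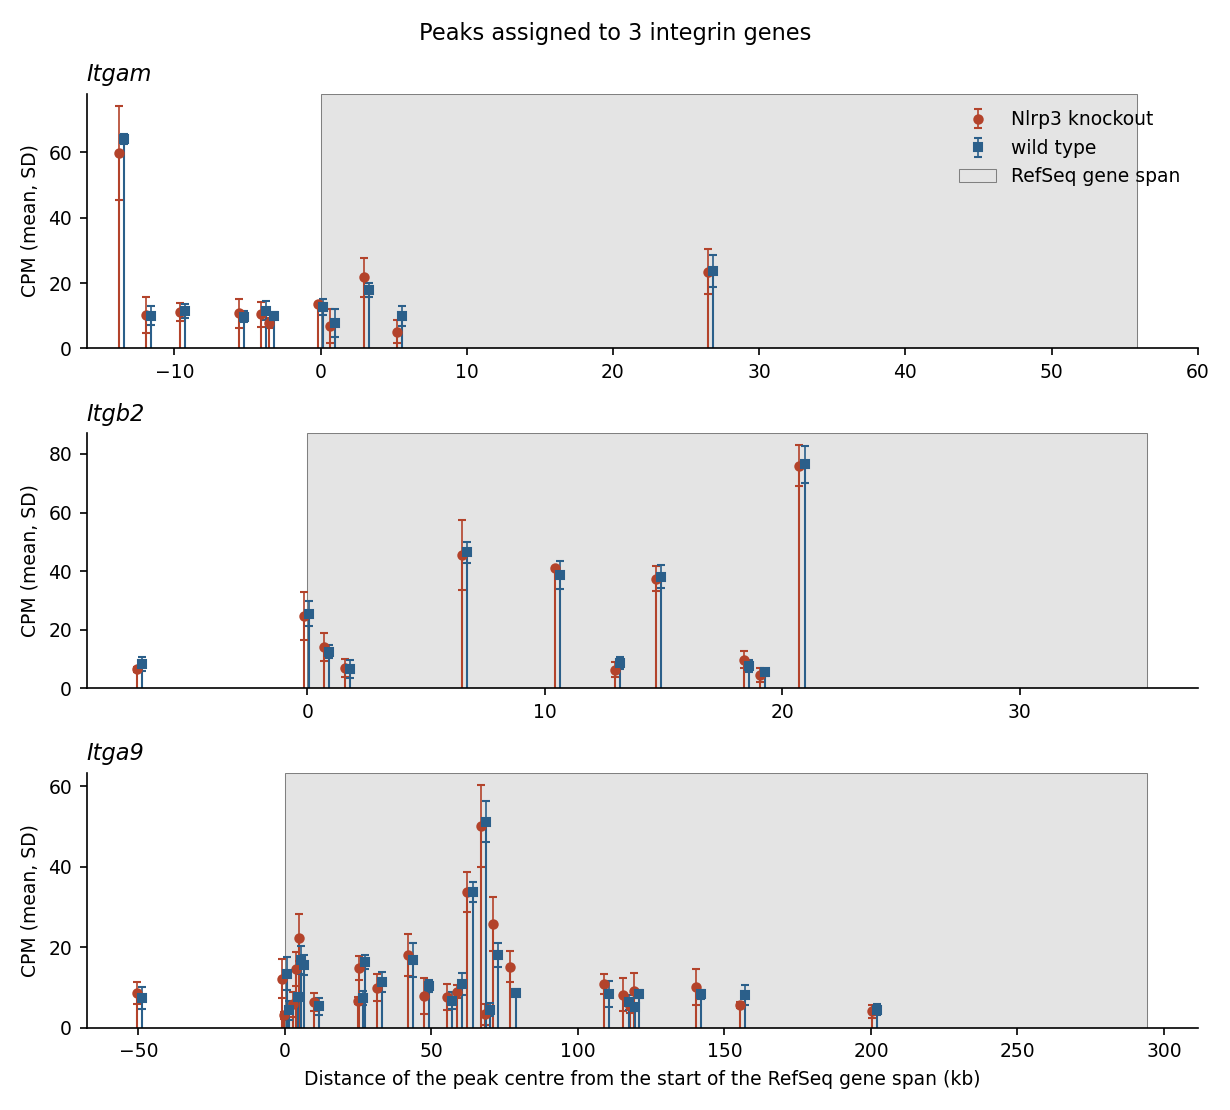
Mean level of each peak in CPM, with SD over 4 libraries, against the distance of its centre from the start of the RefSeq gene span in kb (grey: the span), for Itgam, Itgb2 and Itga9; knockout points are drawn just left and wild-type points just right of the true position. At each gene the tallest peak is away from the start (13.6 kb before it for Itgam), and knockout and wild-type stems have like heights at the tall peaks.

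Itgax, the CD11c gene and a marker of dendritic cells that is also raised in activated microglia, had 72.0, 62.2, 78.7 and 81.3 CPM over 7 peaks in knockout and 80.9, 79.7, 73.9 and 80.0 CPM in wild-type libraries. Knockout replicates 1 and 2 lay below all wild-type values, and knockout replicate 4 above them. The means were 73.5 ± 8.51 CPM in knockout and 78.7 ± 3.18 CPM in wild type (log2 fold change -0.05, SE 0.10). It had a pair of promoter peaks. The upstream one, chr7:128128865-128129125, was its strongest peak and averaged 22.7 ± 6.62 CPM in knockout and 24.4 ± 5.85 CPM in wild type. At the start itself, chr7:128129397-128129620 averaged 9.06 ± 2.14 CPM in knockout and 11.5 ± 4.63 CPM in wild type (log2 fold change -0.41, SE 0.30). This start peak was on the wild-type list alone. Itgam and Itgax are neighbours on chromosome 7, and 2 of the 7 peaks assigned to Itgax lie in introns 16 and 24 of Itgam.

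The promoter windows of this pair are shown because they are neighbours that encode partners of one beta chain and their promoter peaks cover these bases in part. Sequences are from RefSeq on GRCm38.p6, from 250 bases before to 50 bases after the start, on the plus strand, with motif matches in capitals. The Itgam window is chr7:128062390-128062689 and the Itgax window is chr7:128129300-128129599.
Itgam: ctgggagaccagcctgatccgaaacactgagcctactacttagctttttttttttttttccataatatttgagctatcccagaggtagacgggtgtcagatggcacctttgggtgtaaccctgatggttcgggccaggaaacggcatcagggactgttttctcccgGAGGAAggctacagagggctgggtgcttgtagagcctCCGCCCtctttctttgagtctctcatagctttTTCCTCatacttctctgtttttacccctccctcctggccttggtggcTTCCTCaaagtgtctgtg
Itgax: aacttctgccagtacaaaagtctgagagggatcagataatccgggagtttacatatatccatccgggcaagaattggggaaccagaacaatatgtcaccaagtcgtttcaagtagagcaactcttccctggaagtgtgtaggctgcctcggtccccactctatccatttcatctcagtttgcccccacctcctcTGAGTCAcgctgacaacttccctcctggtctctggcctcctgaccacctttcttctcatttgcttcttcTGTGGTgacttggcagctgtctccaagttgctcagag
The Itgam capitals are GAGGAA or its reverse complement TTCCTC, the core of a PU box bound by PU.1 in myeloid cells, at -84 to -79, -15 to -10 and 33 to 38, and CCGCCC, the reverse complement of the GC box GGGCGG bound by Sp1, at -47 to -42. Positions count from 1 at the annotated start, with -1 the base before it. In the Itgax window the capitals are TGAGTCA at -56 to -50, a match to the AP-1 motif TGANTCA, and TGTGGT, a RUNX core, at 14 to 19. Matches of different motifs did not overlap. On either strand, 28.3% of all 32851 windows of this length held GAGGAA, 35.7% GGGCGG, 7.81% TGANTCA, 16.8% TGTGGT and 13.6% TATAAA, which none of the 7 member windows held. GC content was 50.3% for Itgam and 50% for Itgax, with 6 and 5 CpG dinucleotides, against medians of 52.7% and 7 over all windows. Of the window's bases, 160 lay in the Itgam promoter peak and 203 in the Itgax one. A match describes the letters and is not a binding site.

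Itgal, which encodes CD11a, the LFA-1 alpha chain best known from lymphocytes, had the fewest peaks and tags. Its 4 peaks summed to 47.2, 40.5, 33.9 and 27.5 CPM in knockout and 29.7, 39.9, 28.2 and 34.9 CPM in wild-type libraries. The knockout range enclosed the wild-type range, and the interval was the widest of the 10 genes (log2 fold change 0.07, SE 0.17, 95% interval -0.29 to 0.43). The promoter peak, chr7:127296122-127296372, averaged 9.98 ± 3.31 CPM in knockout and 11.7 ± 0.365 CPM in wild type. At the strongest peak, chr7:127290249-127290533, 5.87 kb upstream, the means were 13.2 ± 4.19 CPM in knockout and 12.1 ± 5.17 CPM in wild type. Lymphocyte markers with peaks (Cd2, Cd79b, Klrb1c; 3 of 8) summed to 210 to 269 CPM in knockout and 204 to 233 CPM in wild-type libraries, and 0 of the 3 passed the test in edgeR or had an unadjusted p under 0.05.

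Among the alpha V integrins, Itgav encodes the chain that pairs with beta 1, 3, 5, 6 and 8, and Itgb5 encodes the beta 5 chain of the vitronectin receptor that also serves in uptake of apoptotic cells. Itgav had 146, 109, 165 and 163 CPM over 10 peaks in knockout and 129, 164, 132 and 169 CPM in wild-type libraries (log2 fold change 0.03, SE 0.11). Each genotype held high and low libraries, and knockout replicate 2 was the lowest. Its promoter peak, chr2:83724262-83724569, was its strongest, at 37.4, 22.1, 30.7 and 39.5 CPM in knockout and 25.4, 35.8, 29.0 and 36.3 CPM in wild-type libraries. The highest and the lowest of these promoter values were both in knockout libraries. Itgb5 had 248, 252, 215 and 251 CPM over 18 peaks in knockout and 224, 249, 216 and 222 CPM in wild-type libraries. Knockout replicates 1, 2 and 4 lay near or above the highest wild-type library and knockout replicate 3 below the lowest (means 241 ± 17.4 and 228 ± 14.4 CPM in knockout and wild type, log2 fold change 0.08, SE 0.08). The strongest Itgb5 peak, chr16:33860041-33860351 in intron 2, had 21.7, 28.0, 30.3 and 40.1 CPM in knockout and 35.8, 35.1, 33.0 and 29.8 CPM in wild-type libraries, so that the knockout values enclosed the wild-type ones. Its promoter peak, chr16:33829524-33829752, averaged 11.5 ± 2.25 CPM in knockout and 10.2 ± 1.63 CPM in wild type. In intron 5, chr16:33895771-33896154 averaged 12.7 ± 6.41 CPM in knockout and 6.80 ± 3.43 CPM in wild type, a log2 fold change of 0.68 with an SE of 0.39, with overlapping groups.

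The sums of several members depend on how peaks are assigned. The RefSeq span of Itgb5 with 1 kb on either side held 39 peaks, of which the deposited table assigns 22 to the neighbouring gene Umps, as it names peaks by the nearest start site. Summed over the span, Itgb5 averaged 528 ± 53.7 CPM in knockout and 485 ± 36.5 CPM in wild type (log2 fold change 0.11, SE 0.08, adjusted p = 0.932 in edgeR). Of the 22 peaks, 21 were tested, with 14 higher and 7 lower values in knockout, and 0 passed the test. Peaks with another gene's name also lay in the spans of Itgam (2 assigned to Itgax), Itga9 (2 to Ctdspl), Itga6 (2 to Pdk1), Itgav (1 to Fam171b) and Itgb2 (1 to Pttg1ip). Named peaks outside the span were 6 of 11 for Itgam, 5 of 8 for Itga4 and 4 of 7 for Itgb1, the strongest Itgam and Itgb1 peaks among them. Over its span Itgam averaged 81.0 ± 11.1 CPM in knockout and 78.2 ± 9.64 CPM in wild type, and the log2 fold change was 0.07 (SE 0.11), of opposite sign to that of its gene sum. Itgb1 averaged 21.4 ± 3.37 CPM in knockout and 22.8 ± 4.63 CPM in wild type over its span, where the sign also turned (log2 fold change -0.02, SE 0.19). Over RefSeq spans 0 of the 10 members passed the test (0.166% of all 18663 tested spans did).

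The beta 1 family carries adhesion to VCAM-1, fibronectin and laminin. Itgb1, its common chain, had 76.7, 91.1, 101 and 99.8 CPM over 7 peaks in knockout and 98.5, 95.3, 83.5 and 96.8 CPM in wild-type libraries (log2 fold change 0.02, SE 0.10). Knockout replicate 1 was lowest and knockout replicates 3 and 4 were highest. Its strongest peak lay 30.6 kb upstream at chr8:128654878-128655156, with 30.2, 32.5, 49.6 and 41.1 CPM in knockout and 43.3, 36.5, 26.2 and 38.2 CPM in wild-type libraries. Per kb this element was 2.95 to 6.40 times the promoter peak in knockout and 2.41 to 7.70 times in wild-type libraries. The promoter peak, chr8:128685352-128685746, averaged 12.6 ± 1.55 CPM in knockout and 13.5 ± 5.04 CPM in wild type. A weak peak in intron 1, chr8:128686223-128686426, averaged 5.91 ± 2.62 CPM in knockout and 4.04 ± 1.38 CPM in wild type (log2 fold change 0.71, SE 0.40), without passing the test. This weak peak was on the knockout list alone.

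Itgav and Itgb1 are set beside each other because, summed over promoter peaks and taken per kb, they ranked first and last of the 10 genes in both genotypes, while their windows have the same GC content. Each gene in that order overlapped the next. The order depends on peak width, which was 308 bases for Itgav and 395 for Itgb1. Not divided by width, their promoter sums averaged 105 and 42.6 CPM over the 8 libraries. Those of Itga4 (159 CPM) and Itgal (35.6 CPM) were then the highest and lowest. The Itgav and Itgb1 windows are chr2:83724147-83724446 and chr8:128685404-128685703 on the same terms as above.
Itgav: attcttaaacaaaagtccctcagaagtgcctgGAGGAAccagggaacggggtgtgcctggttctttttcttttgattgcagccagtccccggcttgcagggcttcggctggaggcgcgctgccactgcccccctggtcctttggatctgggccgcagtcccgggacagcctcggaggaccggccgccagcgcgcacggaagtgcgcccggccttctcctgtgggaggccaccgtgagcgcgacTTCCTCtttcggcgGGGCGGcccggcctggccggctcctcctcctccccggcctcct
Itgb1: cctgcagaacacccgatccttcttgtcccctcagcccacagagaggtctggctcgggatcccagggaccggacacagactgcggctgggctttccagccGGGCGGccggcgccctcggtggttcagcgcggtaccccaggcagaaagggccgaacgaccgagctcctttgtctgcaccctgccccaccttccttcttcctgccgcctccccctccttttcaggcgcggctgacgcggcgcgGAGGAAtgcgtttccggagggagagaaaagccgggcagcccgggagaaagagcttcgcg
In the Itgav window the capitals are GAGGAA at -218 to -213, TTCCTC at -7 to -2 and GGGCGG at 8 to 13, and in the Itgb1 window GGGCGG at -151 to -146 and GAGGAA at -9 to -4. GC content was 67.3% in both, with 24 CpG dinucleotides for Itgav and 27 for Itgb1. The promoter peak of Itgav had 105.3 CPM per kb in knockout and 103 CPM per kb in wild type, and that of Itgb1 had 31.98 CPM per kb in knockout and 34.3 CPM per kb in wild type. All 300 bases of the Itgb1 window and 185 bases of the Itgav window lay in the promoter peak.

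Itga4, the alpha chain of VLA-4 that binds VCAM-1 and is used to distinguish infiltrating monocytes and lymphocytes from microglia, had 105, 78.1, 76.2 and 94.6 CPM over 8 peaks in knockout and 104, 81.8, 61.7 and 112 CPM in wild-type libraries. Wild-type replicates 3 and 4 were the extremes (log2 fold change -0.04, SE 0.14). Its promoter peaks lay side by side and had values of opposite sign. The upstream one, chr2:79254746-79254977, averaged 30.1 ± 8.43 CPM in knockout and 23.98 ± 3.35 CPM in wild type, a log2 fold change of 0.25 (SE 0.20). The one at the start, chr2:79255046-79255668, averaged 17.6 ± 6.75 CPM in knockout and 24.3 ± 7.04 CPM in wild type, a log2 fold change of -0.38 (SE 0.24). Neither passed the test, and both pairs of groups overlapped.

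Itga6, the alpha 6 chain of a laminin receptor, had 104, 126, 95.6 and 88.7 CPM over 7 peaks in knockout and 91.2, 106, 95.2 and 80.5 CPM in wild-type libraries. Knockout replicate 2 was the highest and a wild-type library the lowest (log2 fold change 0.11, SE 0.11, 95% interval -0.13 to 0.34). A peak in intron 1, chr2:71814110-71814370, 27.3 kb after the start, held 39.3% of its tags, with 41.0, 44.3, 39.1 and 39.1 CPM in knockout and 44.7, 37.2, 41.5 and 34.0 CPM in wild-type libraries. The promoter peak, chr2:71786823-71787069, averaged 11.5 ± 3.01 CPM in knockout and 12.8 ± 3.69 CPM in wild type.

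Itga9 encodes the alpha chain of a receptor for tenascin-C, osteopontin and VCAM-1. It had the most peaks, 26, of which 24 were intronic, and its sum was 313, 302, 324 and 337 CPM in knockout and 338, 298, 296 and 280 CPM in wild-type libraries. Wild-type replicate 1 was the highest and the other wild-type libraries lay below all knockout libraries (means 319 ± 14.8 and 303 ± 24.9 CPM in knockout and wild type). The log2 fold change was 0.08 (SE 0.08, adjusted p = 0.937 in edgeR, the lowest of the 10 gene sums). One of its 26 peaks lies in exon 15 of Golga4.

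All 3 member peaks with an unadjusted p under 0.05 were Itga9 introns, and all were higher in knockout. In intron 11, chr9:118678411-118678686 had 26.5, 16.2, 31.2 and 29.1 CPM in knockout and 21.4, 19.7, 14.8 and 16.8 CPM in wild-type libraries. Knockout replicate 2 lay among the wild-type values and the other knockout libraries above them. The log2 fold change was 0.59 (SE 0.21), with an adjusted p = 0.798 in edgeR, the lowest of the 97. Without knockout replicates 1 and 2 it was 0.73, with an adjusted p = 0.178 in edgeR. In intron 13, chr9:118684431-118684673 had 19.3, 17.7, 11.0 and 12.9 CPM in knockout and 9.94, 7.73, 8.54 and 8.85 CPM in wild-type libraries, without overlap (log2 fold change 0.66, SE 0.26, adjusted p = 0.916 in edgeR). In intron 1, chr9:118612041-118612584 had 20.5, 31.0, 18.4 and 19.7 CPM in knockout and 14.4, 17.6, 17.6 and 12.6 CPM in wild-type libraries. These groups also did not overlap, and knockout replicate 2 lay far above the other knockout libraries (log2 fold change 0.46, SE 0.22, adjusted p = 0.99997 in edgeR). These last 2 were the only member peaks of 97 whose groups did not overlap, where 3.17% of all tested peaks did not overlap either. The strongest Itga9 peak, chr9:118674289-118674573 in intron 11, did not share the pattern, at 49.5, 36.9, 52.7 and 61.5 CPM in knockout and 57.7, 47.8, 52.9 and 46.6 CPM in wild-type libraries. Its promoter peak, chr9:118606474-118606723, averaged 12.2 ± 4.79 CPM in knockout and 13.4 ± 4.11 CPM in wild type. A weaker intronic peak, chr9:118762757-118763033, had the opposite sign, with 5.65 ± 0.756 CPM in knockout and 8.14 ± 2.38 CPM in wild type (log2 fold change -0.56, SE 0.34). Chromosome 9 held 26 of the 99 peaks called in the whole series, and the one nearest to Itga9 was at chr9:119737098-119737364, assigned to Scn10a, 0.929 Mb away (log2 fold change -3.10). No called peak lay on chromosomes 2, 10 or 16, and the nearest on chromosomes 7 and 8 was 12.8 Mb from a member.

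Most tags of these genes lay outside promoters. Promoter peaks were 11.0% of the 109 peaks, against 19.5% of all peaks, introns 67.0% against 42.9%, and regions between genes 19.3% against 30.3%. The strongest peak was at a promoter for 3 genes (Itgax, Itgav, Itga4) and elsewhere for 7. For a pair of them the order was not firm. The Itgax promoter peak averaged 23.6 CPM over the 8 libraries and its intron 8 peak at chr7:128133725-128133991 averaged 23.02 CPM, and the upstream Itgal peak exceeded the promoter peak per kb in 4 of 8 libraries. Promoter peaks held 13.1% ± 0.788 of the integrin tags in knockout and 13.7% ± 0.584 in wild-type libraries (SD, n = 4 each). The tag share over all peaks and the place of the strongest peak over all genes are not given here. Neither trait is therefore shown to be particular to the integrin genes. Summed separately, 0 of 10 promoter sums passed the test (0.0781% of 10240 did) and 0 of 10 sums of the other peaks did (0.359% of 12270), in edgeR and in DESeq2. None of these sums had an unadjusted p under 0.05 in edgeR, where 4.72% of all promoter sums and 6.13% of all sums of other peaks did. Promoter log2 fold changes ran from -0.12 (Itgal) to 0.32 (Itgb5), and those of the other peaks from -0.09 (Itga4) to 0.14 (Itgal). Peaks found on both the knockout and wild-type lists were 84, those on the knockout list alone 6 and those on the wild-type list alone 19, shares of 77.1%, 5.50% and 17.4% against 75.5%, 8.18% and 16.3% of all peaks.

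**Figure D4:**
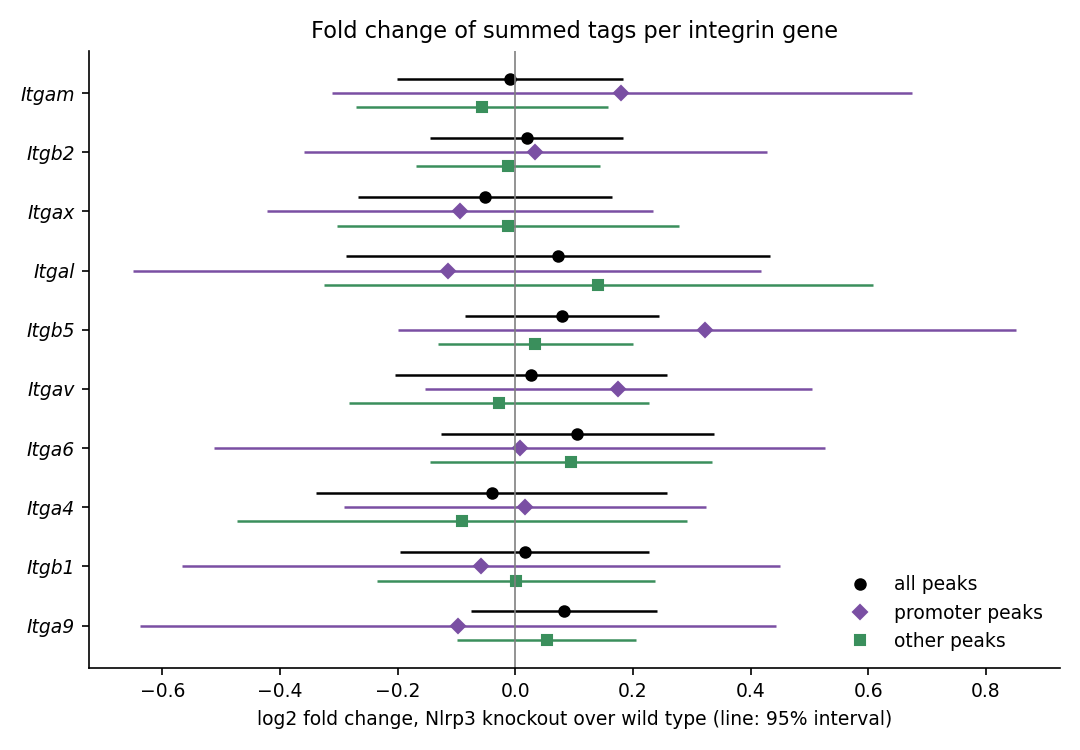
Log2 fold change of knockout over wild type with its 95% interval (lines) for each gene's sum over all peaks, promoter peaks and other peaks. Every interval includes 0. At every gene but Itga4 the promoter sum, with fewer tags, has the longest line. At Itga4 the sum of other peaks has it.

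Per kb of peak the genes could be ordered. Itgb2 was the highest in both genotypes, at 85.1 ± 5.60 CPM per kb in knockout and 84.5 ± 6.64 CPM per kb in wild type, and its libraries did not overlap those of the next gene, Itgam, at 53.9 ± 8.37 CPM per kb in knockout and 55.5 ± 3.13 CPM per kb in wild type. Itgav, Itgb5, Itgb1 and Itga9 followed in the same order in both genotypes. Itgal and Itgax were the lowest in knockout, at 36.6 ± 8.35 and 35.2 ± 4.08 CPM per kb, and Itga6 and Itgal in wild type, at 36.9 ± 4.19 and 32.6 ± 5.22 CPM per kb. From Itgam down, every gene overlapped the next in both genotypes, so only the first place was set apart from its neighbour.

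An integrin reaches the surface as a pair, so the ratio of summed tags between partner genes was taken within each library for 8 known pairs. The Itgam to Itgb2 log2 ratio was -0.42, -0.97, -0.53 and -0.50 in knockout and -0.64, -0.68, -0.35 and -0.47 in wild-type libraries, with a difference of -0.07 between the means. The Itgax to Itgb2 log2 ratio averaged -1.85 ± 0.168 in knockout and -1.73 ± 0.0626 in wild type, the smallest p of the 8 (exact permutation p = 0.257, two-sided, adjusted p = 0.971 over the 8 pairs). Each of the 8 ratios had overlapping groups and an adjusted p = 0.971 in exact permutation tests, and the smallest p that 4 against 4 libraries allow is 0.0286. The Itga6 to Itgb1 log2 ratio differed most between the means, by 0.17, at 0.16 ± 0.335 in knockout and -0.0085 ± 0.219 in wild type.

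**Figure D5:**
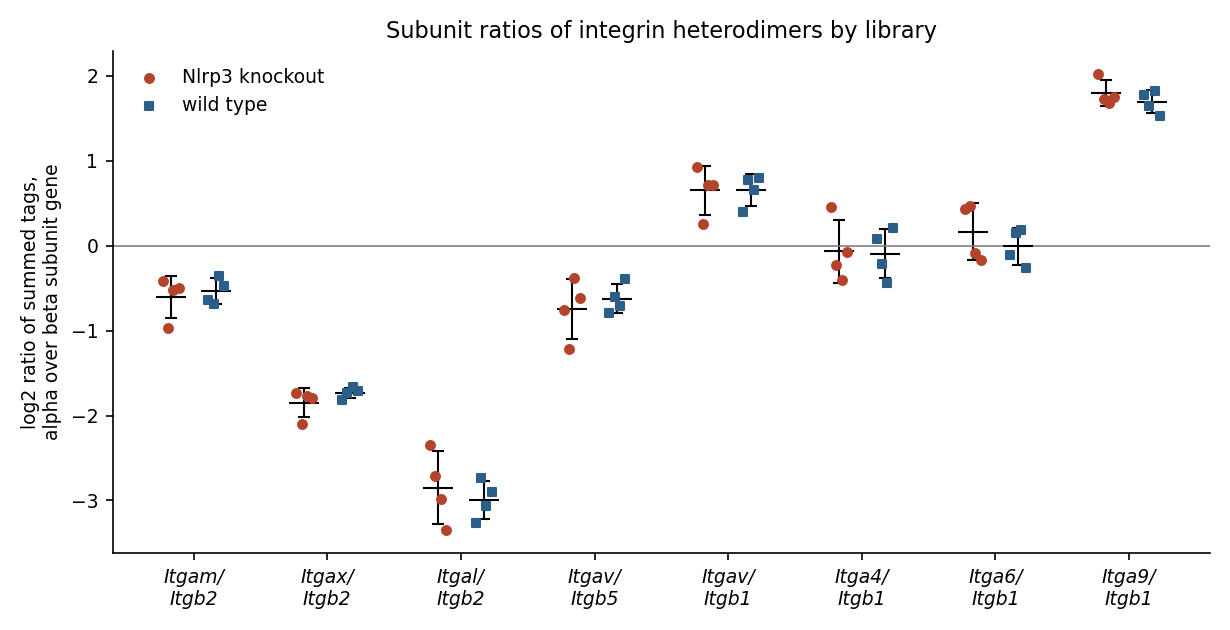
Log2 ratio of summed tags of the alpha over the beta subunit gene (vertical axis) for 8 heterodimers, 1 point per library, knockout left of wild type, with mean and SD bars. Groups overlap at each pair; knockout replicate 2 lies lowest of its group at Itgam/Itgb2 and Itgax/Itgb2.

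Across the 8 libraries, the genes whose summed level was most like that of Itgam by Pearson's r of log2 CPM, out of 15474 genes, were Gpatch1 (0.972), Rap2c (0.968), Acin1 (0.967), Ccdc186 (0.966) and Sgk3 (0.964). Itgax was left out of this ranking because its peaks lie next to and within Itgam. Among the other members r ran from -0.90 (Itga6) to 0.70 (Itgav), and it was 0.023 for its partner Itgb2. The libraries differ in depth and in the share of tags in peaks, which all genes share, and r is a description only.

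Of 107 other genes of integrin biology on 6 lists (other subunits, ligands, activators, inhibitors, signalling and adhesion, TGF-beta activation), 86 had a peak and 83 were tested. None passed the test in edgeR (0.213% of all tested genes did) or in DESeq2, and 50 had higher and 33 lower values in knockout. Of the 83, 3 had an unadjusted p under 0.05 in edgeR, where 5.96% of all tested genes did. The median log2 fold change was 0.04 against 0.0020 over all tested genes. Fyn, a Src-family kinase downstream of integrins, had the smallest p. Its sum was 92.1, 98.4, 83.4 and 81.0 CPM in knockout and 121, 125, 107 and 105 CPM in wild-type libraries. All knockout values lay below all wild-type values (log2 fold change -0.40, SE 0.10, adjusted p = 0.158 in edgeR), as they did for 1.67% of all tested genes. The other 2 were Itgae, the alpha E chain, at 164 ± 8.02 CPM in knockout and 141 ± 14.1 CPM in wild type (log2 fold change 0.23, adjusted p = 0.671 in edgeR), and Jam3, a ligand of complement receptor 3, at 113 ± 7.54 and 97.1 ± 8.43 CPM in the same order (log2 fold change 0.23, adjusted p = 0.74 in edgeR).

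Other integrin subunits were 13 tested of 17, with 6 higher and 7 lower values. Itga8, the alpha 8 chain, averaged 83.5 ± 11.0 CPM in knockout and 72.8 ± 16.9 CPM in wild type. Itga10, Itga11, Itgb2l and Itgb6 had no peak. Ligands had 12 higher and 2 lower values among 14 tested of 28, with a median log2 fold change of 0.09 and 0 called. Fgg, the fibrinogen gamma chain bound by complement receptor 3, averaged 14.2 ± 3.19 CPM in knockout and 9.53 ± 2.75 CPM in wild type. Activators, which include the proteins that bind integrin tails, had 7 higher and 7 lower values among 14 tested of 17. Rapgef1, an exchange factor for Rap1, averaged 465 ± 13.4 CPM in knockout and 421 ± 32.3 CPM in wild type, and Vcl, vinculin, 114 ± 12.3 and 101 ± 6.38 CPM in the same order. Among the 8 inhibitors, 3 were higher and 5 lower. Flna, filamin A, averaged 82.8 ± 13.7 CPM in knockout and 74.7 ± 6.34 CPM in wild type, and Dok1, an adaptor that competes with talin, 161 ± 15.5 and 168 ± 7.17 CPM in the same order.

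For signalling and adhesion, 18 were higher and 9 lower among 27 tested of 30, with Fcer1g, an adaptor with an activation motif used by myeloid integrins, at 79.8 ± 11.96 CPM in knockout and 71.9 ± 7.12 CPM in wild type. TGF-beta activation had 4 higher and 3 lower values among 7. Nrros, which presents latent TGF-beta on microglia, averaged 99.9 ± 14.5 CPM in knockout and 83.4 ± 6.78 CPM in wild type, and Tgfb3 136 ± 16.1 and 127 ± 9.59 CPM in the same order. All of these examples overlapped between genotypes except Fyn.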

How the data were processed

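ATAC-seq of CD11b-selected forebrain microglia was compared between 4 Nlrp3 knockout and 4 wild-type libraries, grouped by the labels. Per the file headers, the authors merged peak lists of both genotypes and counted tags over them with HOMER, at most 3 tags per position. The deposited counts are whole tags per peak and library. Bowtie2, HOMER, DESeq2 and mm10 are named in the submitters' processing notes, without versions, and any shift of read ends or removal of duplicates is not given in the sources used here. Totals in the headers were 11325865 to 15521580 tags.

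Counts were tested with edgeR 4.0.16 (R 4.3.3) by its quasi-likelihood F test, with TMM scaling, filterByExpr at a minimum count of 10, all 8 libraries, genotype as the only term, and Benjamini-Hochberg adjusted p under 0.05 over all tested features. Tags were tested per peak, summed per gene by the deposited nearest-gene name, and summed over promoter peaks (the deposited promoter-TSS class) and over other peaks. CPM are edgeR's counts scaled to the tags in the features tested at that level, after TMM scaling. The summed levels of marker lists were instead scaled to all tags in peaks, without TMM scaling, and include markers that were not tested. Gene sums count all of a gene's peaks, tested or not. SE were taken from the fold change and its F value. Subunit ratios used raw tags and exact permutation tests. The test was checked on simulated counts. Alternatives, run with DESeq2 1.42.0 and edgeR, are given in the closing section.

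All 10 members are named. Peaks given singly are promoter peaks, the strongest peak of each member and the 10 with the smallest p. Others were chosen after their values were seen (3 Itgb2 intron peaks and an Itgax intron peak). Of each list the 2 genes with the smallest p are named. Members and lists were chosen with earlier results of these data known. RefSeq promoter windows were matched by symbol for 7 of the 10 members. The window of Itga9 lies at another start, with no peak over it. The deposited normalized table was not used. A pair of marker genes is not reported here.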

Additional observations from a re-analysis of the deposited data

Results flagged for a closer look

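Of 94 groups of 4 libraries examined for a library far from the other 3, 7 had one, by Dixon's ratio above its 95% critical value. Chance alone gives about 1 in 20 such groups.

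For the Itgb5 gene sum, knockout replicate 3 was low at 215 CPM, with the other knockout libraries at 247.9 to 251.7 CPM. Wild-type replicate 3 was low for the Itgax gene sum, at 73.9 CPM against 79.7 to 80.9 CPM in the other wild-type libraries.

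Among promoter peaks, knockout replicate 4 was high at Itgam chr7:128062530-128062760, at 14.2 CPM against 13.2 to 13.3 CPM in the other knockout libraries. It was also high at the Itgb5 promoter, chr16:33829524-33829752, with 14.9 CPM against 10.1 to 10.9 CPM.

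In Itga9, knockout replicate 2 was high at chr9:118612041-118612584, at 31.0 CPM against 18.4 to 20.5 CPM in the other knockout libraries, and knockout replicate 4 was low at chr9:118762757-118763033, at 4.53 CPM against 5.91 to 6.15 CPM. The log2 ratio of Itgax to Itgb2 was low in knockout replicate 2, at -2.10 against -1.79 to -1.73 in the other knockout libraries.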

How the results depend on the processing

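Calls among the integrin genes stayed at 0 (member peaks, gene sums, promoter sums, sums of other peaks, pathway genes) under every alternative run, and the lowest adjusted p reached was 0.178 for a member peak and 0.558 for a member gene sum (Itga9, without wild-type replicate 1). Over all features, scaling to all tags gave 10 called peaks, 4 genes, 1 promoter sum and 6 sums of other peaks, against 99, 33, 8 and 44. With that scaling 2 called genes were higher and 2 lower in knockout, against 12 and 21, and 10 of the 10 member sums had values above 0, with the median of all genes at 0.087. Member peaks were 60 higher and 33 lower with that scaling, and 43 higher and 57 lower without knockout replicate 4, against 51 and 46. Without knockout replicates 1 and 2 there were 246 peaks, 70 genes and 113 sums of other peaks. The share of tags in peaks as a covariate gave 158 peaks and 84 sums of other peaks, a mean of at least 20 tags gave 42 peaks, and DESeq2 gave 4 promoter sums. Leaving out 1 library gave 65 to 123 peaks, 20 to 42 genes, 5 to 30 promoter sums and 24 to 47 sums of other peaks. Replicate numbers did not pair the libraries (correlation of same-numbered deviations -0.0072, 0.092, -0.0043 and 0.14), and the replicate block gave 27 promoter sums and turned the strongest Itgal peak to 0.079, with knockout replicates 2 and 4 alone correlating best with their own number.

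None of the values that turned sign had passed the test, and the cause was not tested. All of the following are log2 fold changes or differences of log2 ratios. Gene sums turned with RefSeq spans (added after seeing the data; Itgam 0.073, Itgb1 -0.019), chromosome Y tags as a covariate (Itgam 0.0097), loess offsets (Itgb2 -0.034, Itgav -0.0018), scaling to all tags (Itgam 0.13, Itgax 0.069, Itga4 0.022), the share in peaks as a covariate (Itgb1 -0.0012) and leaving out knockout replicates 1 and 2 (Itgam 0.091, Itgax 0.025, Itgal -0.12, Itga6 -0.0093). Peaks turned with DESeq2 (strongest Itgal peak 0.050), loess offsets (strongest Itgb2 peak -0.013), the share in peaks (strongest peaks of Itgb2 -0.00026, Itgal 0.041, Itga9 -0.0019), scaling to all tags (strongest peaks of Itgam 0.17, Itgal 0.052, Itgb5 0.10, promoter peaks of Itgb2 0.058, Itgax 0.052, Itga6 0.091) and without knockout replicates 1 and 2 (strongest peaks of Itgam 0.17, Itgb5 0.10, Itga6 -0.0072, promoter peaks of Itgb2 0.048, Itgax 0.013, Itga6 0.034). Ratios, whose alternatives were added after seeing the data, turned without knockout replicates 1 and 2 (Itgam/Itgb2 0.023, Itgal/Itgb2 -0.18, Itgav/Itgb5 0.13, Itgav/Itgb1 0.053, Itga4/Itgb1 -0.15, Itga6/Itgb1 -0.12) and from promoter peaks only (Itgam/Itgb2 0.23, Itgal/Itgb2 -0.20, Itgav/Itgb1 0.045, Itga6/Itgb1 -0.14, Itga9/Itgb1 -0.16). Over single libraries left out, gene sums ran from -0.080 to 0.068 (Itgam), -0.029 to 0.061 (Itgb2), -0.037 to 0.24 (Itgal), -0.038 to 0.11 (Itgav), -0.18 to 0.091 (Itga4) and -0.035 to 0.075 (Itgb1). Strongest peaks ran from -0.15 to 0.072 (Itgam), -0.043 to 0.059 (Itgb2), -0.17 to 0.32 (Itgal), -0.28 to 0.034 (Itgb5), -0.051 to 0.10 (Itga6), -0.013 to 0.26 (Itgb1) and -0.10 to 0.11 (Itga9). Promoter peaks ran from -0.016 to 0.22 (Itgam), -0.12 to 0.11 (Itgb2), -0.17 to 0.066 (Itgax), -0.047 to 0.18 (Itgav), -0.22 to 0.094 (Itga6), -0.33 to 0.11 (Itgb1) and -0.28 to 0.063 (Itga9). Ratios ran from -0.13 to 0.055 (Itgam/Itgb2), -0.028 to 0.31 (Itgal/Itgb2), -0.24 to 0.040 (Itgav/Itgb5), -0.10 to 0.13 (Itgav/Itgb1) and -0.14 to 0.14 (Itga4/Itgb1). At 8 tags in the median tested peak of knockout replicate 2, small differences at single peaks were not detectable.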

Other observations

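Among the microglial markers, Csf1r, the receptor on which microglia depend for survival, had 312, 273, 311 and 294 CPM over its peaks in knockout and 260, 264, 226 and 247 CPM in wild-type libraries. All knockout values lay above all wild-type values, with a log2 fold change of 0.26 (SE 0.08) and an adjusted p = 0.369 in edgeR, so it did not pass the test. Of the 12 microglial markers 9 had higher and 3 lower values in knockout, 0 passed the test, and 3.46% of all tested genes had groups that did not overlap. Csf1r, Tmem119 and Gpr34, 3 of the 12 and all higher in knockout, had an unadjusted p under 0.05 in edgeR, where 5.96% of all tested genes did. All 8 border macrophage markers had peaks, and they summed to 239 to 255.5 CPM in knockout and 224 to 263 CPM in wild-type libraries. Of the 7 that were tested, 4 had higher and 3 lower values in knockout, with a median log2 fold change of 0.011. Ms4a7 among them averaged 18.9 ± 4.06 CPM in knockout and 12.02 ± 2.26 CPM in wild type without overlap (log2 fold change 0.60, SE 0.23, adjusted p = 0.662 in edgeR). Endothelial and mural markers (6 of 8) summed to 406 to 469.9 CPM in knockout and 412 to 442 CPM in wild-type libraries, with 2 higher and 4 lower values in knockout. Acta2 among them, a smooth muscle actin, was at 13.3 ± 2.22 CPM in knockout and 19.2 ± 3.48 CPM in wild type without overlap (log2 fold change -0.60, SE 0.23, adjusted p = 0.659 in edgeR). Oligodendrocyte lineage markers (6 of 9) summed to 425 to 513 CPM in knockout and 420.5 to 459 CPM in wild-type libraries, and granulocyte markers (3 of 8) to 32.03 to 39.97 CPM in knockout and 37.2 to 44.7 CPM in wild-type libraries. Astrocyte markers with peaks (6 of 8) summed to 365 to 529 CPM in knockout and 343 to 413 CPM in wild-type libraries, and neuronal markers (5 of 8) to 65.6 to 111 CPM in knockout and 76.7 to 86.8 CPM in wild-type libraries. None of these markers passed the test in edgeR, and their part in the integrin values was not tested.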
